A study of Mus musculus with 4 samples.

Results

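The HoxA cluster is a row of homeobox genes on mouse chromosome 6, and its posterior end was described here through histone acetylation and HNF4A binding in the colonic epithelium. The members were every H3K27ac region and every HNF4A peak listed between 52100000 and 52300000 of chromosome 6 in mm9, a window of 200 kb. They came to 6 of the 1000 regions listed as enriched in water, 0 of the 1000 regions listed as enriched in DSS, 6 of the 17886 HNF4A peaks of the water library and 4 of the 10688 peaks of the DSS library. The members were selected on their position, and the window itself was chosen by the H3K27ac tag counts, since water-enriched regions crowd there. Their crowding and the direction of the H3K27ac difference are therefore a description and not a finding.

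The study compared 4 groups of 1 ChIP-seq library each, made from scraped colonic epithelium of adult mice of 2 to 4 months. Mice of the control groups drank water only, and mice of the treated groups received 3% dextran sulfate sodium (DSS), which injures the colonic lining and causes colitis, for 6 days. One library per condition was made with an antibody to H3K27ac and one with an antibody to HNF4A. The labels give no strain, sex or number of animals. The deposited tables name the water libraries WT, which is not explained and was read as the control condition. The column of DSS tags carries the mark r2, also unexplained, so it is unknown whether those counts are of a second replicate. Scraped epithelium can hold other cells of the mucosa. The H3K27ac libraries differed on the Y chromosome: the DSS library had 498 tags and the water library 6 in the 9 separate DSS-enriched regions there. These regions were listed for being higher in DSS, so the direction was given by the list. The part of this difference between libraries in the HoxA values was not tested. With 1 library per group it cannot be told apart from the treatment.

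Hox genes encode transcription factors that give cells their position along the body axis, and the genes lie on the chromosome in the order in which they are used from head to tail. The posterior genes Hoxa9, Hoxa10, Hoxa11 and Hoxa13 act in the hind part of the embryo, including the hindgut, from which the colon arises, and Hoxa13 is the last of the row. H3K27ac, acetylated lysine on the tail of histone H3, marks enhancers and promoters in use. HNF4A, a DNA-binding nuclear receptor, helps to keep up the genes of mature intestinal cells.

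The regions were tied to genes through the distance that the authors' lists carry for each of them, read here as the distance from the centre of a region to a reference point that the header does not name. Regions 1 and 2, counted from the low end of the window, gave the same point at 52195766, and regions 3, 4 and 5 gave the same point at 52210874. The distance of region 6 allowed a point above it at 52263490 or one below it. The spacings between these points, 15108 and 52616 bp, were set beside the spacings between gene starts in RefSeq for GRCm38.p6. On chromosome 6 the starts of Hoxa11, Hoxa13 and Evx1 alone had both spacings within 50 bp, with differences of 38 and 2 bp. Across the genome 1 other set of 3 starts, on chromosome 11, also had them. With the point of region 6 placed below it, no set of starts on chromosome 6 had the spacings. The points are therefore called the Hoxa11, Hoxa13 and Evx1 points, which rests on spacing and gene order, and no position was carried from one build to the other.

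By this reading 2 of the 4 posterior genes, Hoxa11 and Hoxa13, were the nearest reference points of listed regions, while Hoxa9 and Hoxa10 were nearest to none. The names of both lists mark their regions as 2 kb away from an unnamed feature, and the smallest distance in them was 2006 bp. Acetylation at the promoters themselves was therefore not listed, at these genes or any other, and its absence from the lists says nothing of its level. Evx1, the third point, encodes a homeobox transcription factor of the even-skipped family and lies beyond the posterior end of the cluster. Between Hoxa13 and Evx1 the RefSeq table also lists Hottip, a long noncoding RNA read from the tip of the cluster in the direction away from Hoxa13, whose start is 17.0 kb above that of Hoxa11 in that table. Regions 3, 4 and 5 had distances that met at the Hoxa13 point and not at a Hottip start. The start of Hoxa13 is 15.1 kb above that of Hoxa11. By spacing the Hottip start thus lies between the Hoxa13 point and these 3 regions, nearer to them than Hoxa13.

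Promoter sequence is shown for these reference genes because all regions of the window are placed by their starts. The 250 bases before the start were taken from RefSeq (GRCm38.p6), written 5′ to 3′ on the strand of the gene, and the bases after the start were left out. Capitals mark a match to TTTATNG, a core that CDX and posterior HOX proteins bind, read on the other strand as CNATAAA. Hoxa11 and Hoxa13 lie on the minus strand and Evx1 on the plus strand.
Hoxa11: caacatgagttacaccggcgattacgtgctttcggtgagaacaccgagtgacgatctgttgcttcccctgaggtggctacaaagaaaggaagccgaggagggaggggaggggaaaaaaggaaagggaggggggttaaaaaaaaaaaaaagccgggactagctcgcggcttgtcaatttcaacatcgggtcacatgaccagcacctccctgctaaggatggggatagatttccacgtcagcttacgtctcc
Hoxa13: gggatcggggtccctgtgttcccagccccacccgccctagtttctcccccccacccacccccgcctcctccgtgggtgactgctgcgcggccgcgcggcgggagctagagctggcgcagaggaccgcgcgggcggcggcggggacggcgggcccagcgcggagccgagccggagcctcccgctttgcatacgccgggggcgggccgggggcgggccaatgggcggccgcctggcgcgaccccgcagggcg
Evx1: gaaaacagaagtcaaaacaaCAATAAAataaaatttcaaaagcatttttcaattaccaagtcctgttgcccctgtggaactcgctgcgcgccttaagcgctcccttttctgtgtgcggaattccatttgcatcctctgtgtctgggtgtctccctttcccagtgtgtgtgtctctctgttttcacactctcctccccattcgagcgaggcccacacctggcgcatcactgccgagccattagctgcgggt

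The Hoxa13 promoter was the richest in CG dinucleotides of the 3 printed, with 35 of them and a GC content of 80.0%. The Hoxa11 promoter held 13 CG dinucleotides and the Evx1 promoter 10, beside a median of 6.00 over 32851 promoters. The TTTATNG core was found in the Evx1 promoter and in that of Hottip, in both as CAATAAA, beginning 230 and 229 bases before the start. It was in none of the promoters of Hoxa9, Hoxa10, Hoxa11 and Hoxa13, and in 9.81% of all promoters. The half-site AGGTCA of nuclear receptors, searched on both strands (TGACCT), was in 0 of the 7 promoters read for these 6 genes, against 14.0% of all promoters. The longer HNF4A core CAAAGTNCA was also in 0 of the 7, against 1.19% of all. These letters were searched in the promoters alone, since the sequence under the peaks was not analysed here.

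All 6 H3K27ac regions held fewer nucleosome tags in DSS than in water. Summed over them, the water library had 1266 nucleosome tags and the DSS library 605. The ratio of water over DSS was 2.13 after scaling by library totals of 10143920 and 10329416 tags (95% interval 1.93 to 2.35). The authors chose these regions on the same counts, so the ratios describe the list. Intervals cover counting error only, and with 1 library per group no difference between animals was tested. In tissue of mixed cells, less acetylation per cell and fewer cells that carry it cannot be told apart.

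**Figure D1:**
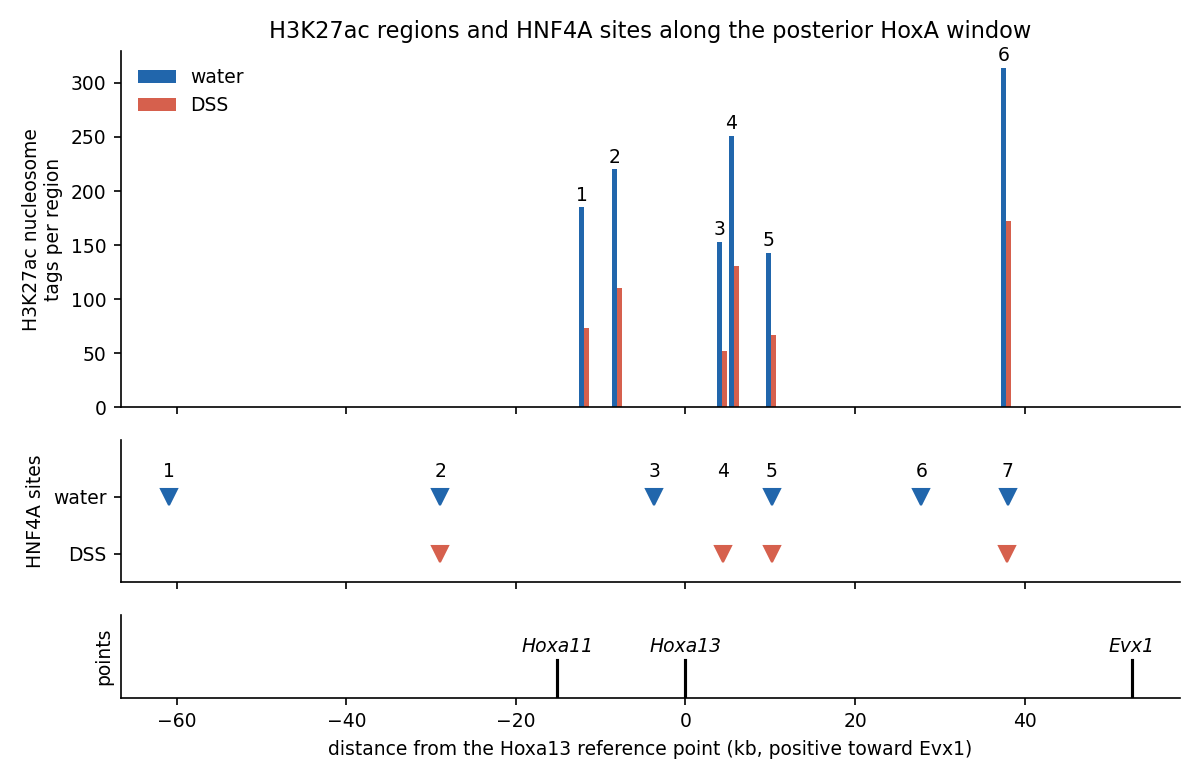
Map of the window by distance from the Hoxa13 point in kb. Bars give raw nucleosome tags of H3K27ac regions 1 to 6 in water and DSS, triangles mark HNF4A sites 1 to 7 by library, and ticks mark the 3 reference points. All 6 regions lie above the Hoxa11 point, and HNF4A sites 1 and 2 lie below it.

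The first pair of regions lay between the Hoxa11 and Hoxa13 points, upstream of Hoxa11 and on the downstream side of Hoxa13. Hoxa11 encodes a posterior HOX factor known from the limb, kidney and uterus. Region 1 (chromosome 6, 52198701 to 52199171) lay 3.17 kb from the Hoxa11 point and held 185 nucleosome tags in water and 73 in DSS. It was 2.58-fold higher in water (1.96 to 3.43), the second largest ratio of the window. Region 2 (52202616 to 52203066), 7.08 kb from the same point, held 220 tags in water and 110 in DSS, a ratio of 2.04 (1.61 to 2.58). The sums of the pair were 405 and 183 tags, a ratio of 2.25 (1.89 to 2.70). Neither region overlapped an HNF4A peak, and the nearest water peak, that of HNF4A site 3, was 7.69 kb from region 1 and 3.80 kb from region 2.

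The next 3 regions lay beyond the Hoxa13 point, on the upstream side of Hoxa13 toward Evx1. Hoxa13 encodes the most posterior HOX factor of the cluster, known for its part in the hindgut, the urogenital tract and the limb. Region 3 (52214931 to 52215401), 4.29 kb from the point, held 153 nucleosome tags in water and 52 in DSS. Its ratio of 3.00 (2.17 to 4.19) was the largest of the 6 and ranked 92 of 1000 in the water-enriched list. Region 4 (52216321 to 52216781), 5.68 kb from the point and next to region 3, held 251 tags in water and 131 in DSS, a ratio of 1.95 (1.57 to 2.43). Region 5 (52220681 to 52221266), 10.1 kb from the point, held 143 and 67 tags, a ratio of 2.17 (1.61 to 2.95). Together these 3 regions held 547 tags in water and 250 in DSS, 2.23-fold higher in water (1.91 to 2.60), a value close to that of the Hoxa11 pair.

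Region 6 (52248441 to 52248971) stood alone, 14.8 kb below the Evx1 point and 27.7 kb from the centre of region 5. It held the most tags of the window in both libraries, 314 in water and 172 in DSS, and had the smallest ratio, 1.86 (1.54 to 2.25). Per length it was also the highest, with 592 nucleosome tags per kb in water and 325 in DSS. Region 5 was the lowest per kb in water, with 244 tags, and had 115 in DSS, and region 3 was the lowest in DSS, with 111 tags per kb against 326 in water. The medians of the water-enriched list were 488 tags per kb in water and 252 in DSS. Regions 2, 4 and 6 were above the water median, at 489, 546 and 592, and regions 1, 3 and 5 below it.

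**Figure D2:**
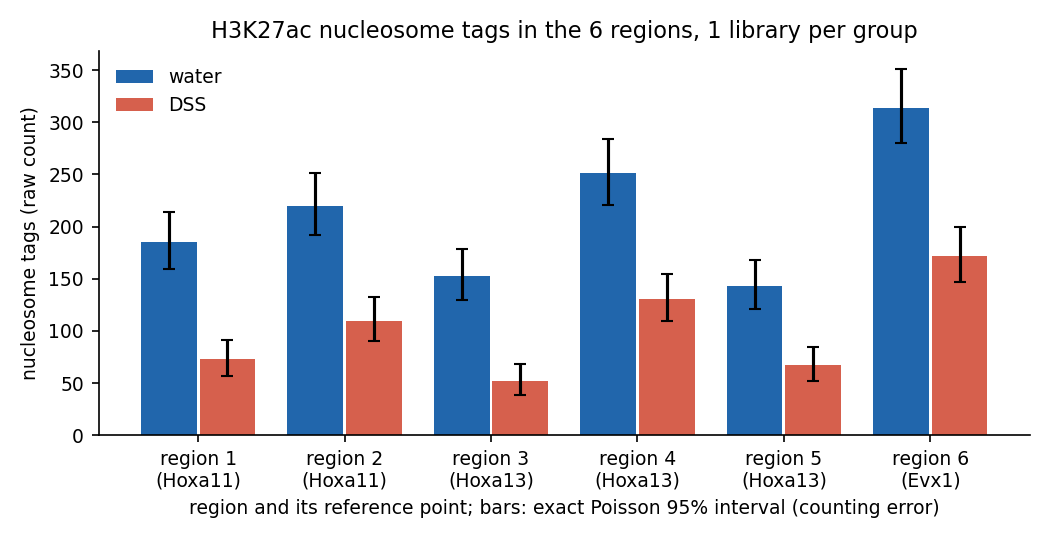
Raw H3K27ac nucleosome tags of regions 1 to 6 in the water and DSS libraries, with the nearest reference point of each and exact Poisson 95% intervals as bars. The water bar is the higher one in every region, from 143 against 67 tags in region 5 to 314 against 172 in region 6.

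The intervals of the 6 ratios overlapped, which does not show that the ratios were alike, and differences between regions were not tested. Values from 2.17 to 2.25 lay inside the interval of every region. Without region 3 the sums gave a ratio of 2.05 (1.85 to 2.27). The ratio was more than 2-fold in 4 of the 6 regions, against 40.3% of the water-enriched list, and the 2 regions under it were regions 4 and 6, at 1.95 and 1.86. The interval lay above 1 in 6 of 6, against 99.3% of the list. The median log2 ratio of DSS to water was -1.07 in the window, beside -0.91 over the list (quartiles -1.20 and -0.70). By the authors' score the regions were spread over the list, from rank 212 for region 3 to rank 822 for region 6. That score is built from differences of square roots of counts, so a region with fewer tags needs a larger ratio to reach it. Median water tags were 202 in the window and 266 over the list. The part of this in the ratios of the window was not tested.

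**Figure D3:**
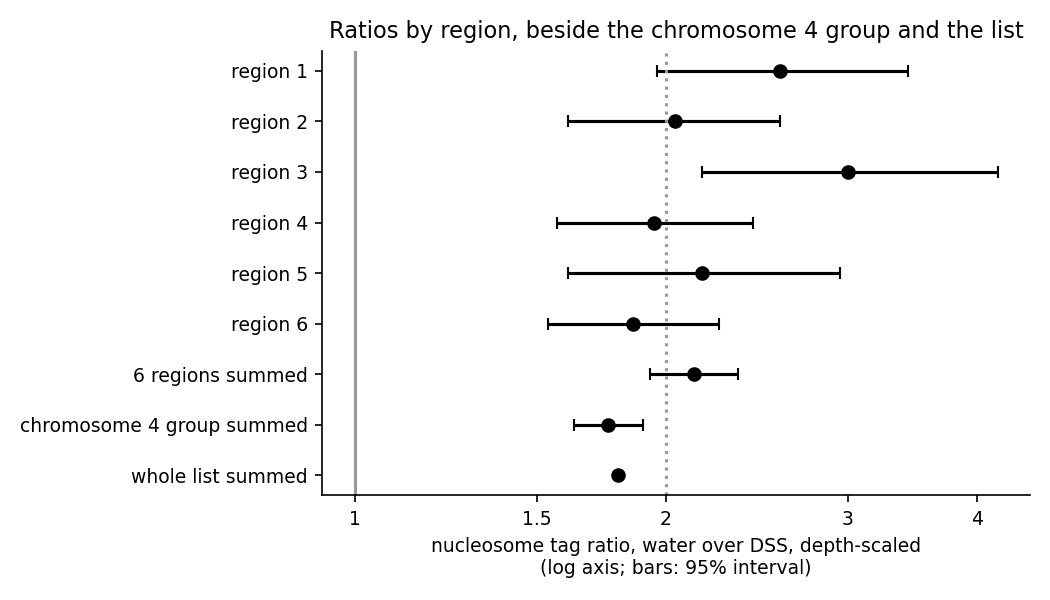
Depth-scaled nucleosome tag ratio of water over DSS on a log axis, by region and for sums over the 6 HoxA regions, the chromosome 4 group and the whole water-enriched list, with 95% counting intervals as bars. The intervals of all 6 regions overlap, and the HoxA sum (1.93 to 2.35) lies above the chromosome 4 sum (1.63 to 1.90). Median water tags per region are 202 in HoxA and 267 in the chromosome 4 group, and fewer tags need a larger ratio for listing.

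Linker tags, read as those between the nucleosomes of a region, were few. Over the 6 regions they numbered 23 in water and 26 in DSS, a ratio of water over DSS of 0.901 (0.491 to 1.64). At 0 to 10 linker tags per region and library, a difference within a single region was not detectable. Region 2 held 0 linker tags in both libraries, which allows a linker share of up to 1.36% in water and 2.73% in DSS. Region 3 had the highest linker share in DSS, 13.3% from 8 of 60 tags, against 3.16% in water from 5 of 158. Linker tags made up 1.78% of all tags of the 6 regions in water and 4.12% in DSS, beside 5.30% and 10.5% over the water-enriched list. The authors' score sets nucleosome tags against linker tags in each library, so the water-enriched list favours a higher linker share in DSS. In the DSS-enriched list the shares were 22.4% in water and 7.97% in DSS. With linker tags added, the ratios ran from 1.83 (1.52 to 2.21) in region 6 to 2.68 (1.98 to 3.67) in region 3.

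Among 710 side-by-side windows of 200 kb with any water-enriched region, 2 held 6 or more, and the median held 1.00. Such windows can split a group of regions, whereas the HoxA window was chosen for its crowding, so the counts are not fully alike. The largest group elsewhere, linked at gaps of up to 50 kb, lay on chromosome 4 (55616481 to 55731861) with 7 listed regions over 115 kb. Its sums were 1833 nucleosome tags in water and 1059 in DSS, a ratio of 1.76 (1.63 to 1.90), which was below the interval of the HoxA sum. Median water tags per region were 267 in this group and 202 in HoxA, and regions with fewer tags need a larger ratio to be listed. The part of this in the difference between the 2 ratios was not tested. The linker share of the chromosome 4 group, 8.21% in water and 17.2% in DSS, was above that of HoxA. The HoxA regions took up 50.3 kb and did not overlap each other. The lower 98.7 kb of the window, toward the anterior genes, held no listed region of either direction. Acetylation within 2 kb of the closely spaced Hox starts could not be listed there. The lists hold only the regions most enriched in either condition, so acetylation that differed less between the libraries is also absent from them. As many as 3 or more separate regions met at 22 points of the water-enriched list, of which the Hoxa13 point was 1.

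**Figure D4:**
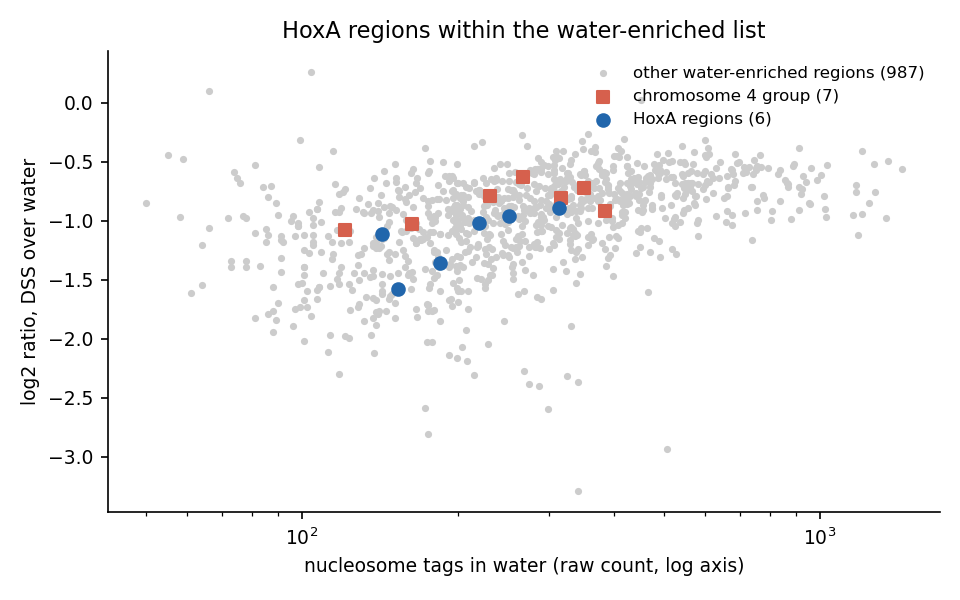
Log2 ratio of DSS over water nucleosome tags against raw tags in water (log axis) for the 1000 water-enriched regions, with the 6 HoxA regions and the 7 regions of the chromosome 4 group marked. The HoxA regions lie between 143 and 314 water tags, and region 3 is the lowest of them at -1.57.

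HNF4A was called at 7 sites of the window, of which 3 were in both libraries, 3 in water alone and 1 in DSS alone. Of the 6 water peaks, 3 were kept in DSS (exact binomial interval of the share 11.8 to 88.2%), where kept means an overlap of at least 1 bp with a DSS peak. Over all water peaks 52.9% were kept. The 3 kept peaks were the 3 strongest of the window in the water list. Of the 4 DSS peaks, 3 lay on a water peak (interval 19.4 to 99.4%), against 82.3% of all DSS peaks. Scores are the authors' and ranks are within each list, whose unequal lengths mean that a rank in one cannot be read as a change in the other.

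HNF4A site 5, 10.2 kb beyond the Hoxa13 point, was the strongest site of the window in water (52220740 to 52221339, score 20.9, rank 1760 of 17886). It was kept in DSS (52220721 to 52221320, score 17.8, rank 2158 of 10688), with the centres 19 bp apart. It lay on region 5, whose centre was 65 bp from the water peak's centre, and this region held the fewest water tags of the 6. Among the 1001 water peaks centred on its rank, 94.5% were kept.

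Site 2 was the strongest of the window in DSS and the next strongest in water. Its peaks covered 52181670 to 52182269 in water (score 13.7, rank 4602) and 52181570 to 52182169 in DSS (score 18.8, rank 1926). Their centres were 100 bp apart, beside a median of 30.0 bp over all 9468 kept water peaks (quartiles 13.0 and 61.0, upper decile 158). Of water peaks near the rank of site 2, 77.0% were kept. The site lay 13.8 kb below the Hoxa11 point. In the RefSeq table the starts of Hoxa10 lie 4.96 and 10.9 kb below that of Hoxa11 and the start of Hoxa9 lies 18.4 kb below it. By spacing the site thus falls between the starts of Hoxa9 and Hoxa10, genes of posterior HOX factors also known from blood cells. No listed H3K27ac region was near, the closest being region 1 at 16.4 kb.

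Site 7 lay on region 6, 14.6 kb below the Evx1 point. Its water peak (52248592 to 52249191, score 12.1) ranked 5777 of 17886 and its DSS peak (52248551 to 52249150, score 10.1) ranked 6072 of 10688, with centres 41 bp apart. Of water peaks near its rank, 63.5% were kept. In both libraries it was the third strongest site of the window.

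The 3 sites found in water alone were weak. Site 1 (52149700 to 52150299, score 7.39) ranked 13077 and lay 45.8 kb below the Hoxa11 point, past the start of Hoxa5, which the RefSeq table places 41.2 kb below that of Hoxa11. Site 3 (52206866 to 52207465, score 5.94) ranked 16190 and lay 3.71 kb below the Hoxa13 point, between Hoxa11 and Hoxa13. Site 6 (52238407 to 52239006, score 5.93) ranked 16202 and lay between Hoxa13 and Evx1, 24.8 kb below the Evx1 point. All 3 ranked beyond the length of the DSS list, and of water peaks near their ranks 33.2%, 27.1% and 26.6% were kept. None overlapped a listed H3K27ac region, with gaps of 48.4, 3.80 and 9.44 kb. No file gives the depth of the HNF4A libraries, so a peak below the calling threshold in DSS and a site without HNF4A cannot be told apart.

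**Figure D5:**
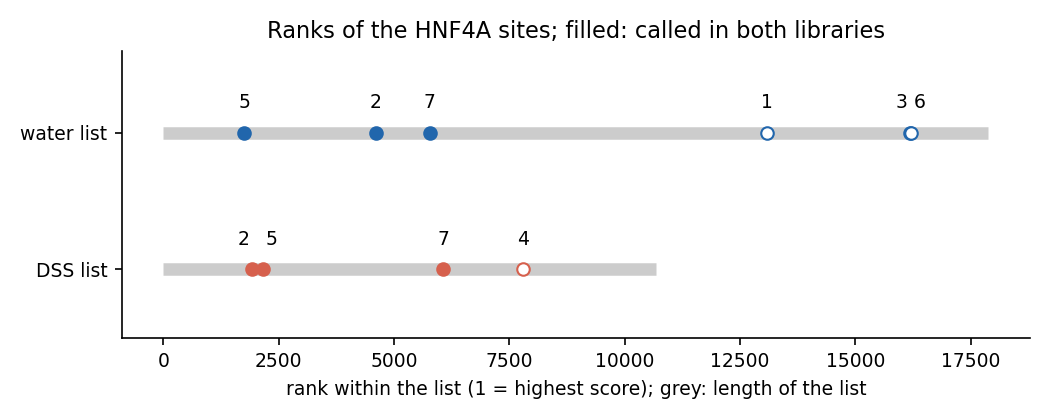
Rank of each HNF4A site within the water list (17886 peaks) and the DSS list (10688 peaks), where 1 is the highest score, grey bars show list length and filled points mark sites called in both libraries. The kept sites 5, 2 and 7 rank from 1760 to 5777 in water, and the water-only sites 1, 3 and 6 rank from 13077 to 16202.

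Site 4 was called in DSS alone (52214963 to 52215562, score 8.48, rank 7791 of 10688), and the nearest water peak was 5.18 kb away. It lay 4.39 kb beyond the Hoxa13 point, on region 3, the region with the largest ratio of H3K27ac in favour of water. The centres of peak and region were 96 bp apart, and region 4 was 0.759 kb from the peak. Of the 1000 water-enriched regions, 24 overlapped a DSS peak and no water peak (2.40%). Among those 24, 2 (8.33%) had a ratio at least as large as that of region 3, counting region 3 itself. In the whole water-enriched list the ratio of region 3 ranked 92 of 1000, which is a like share. Of DSS peaks near the rank of site 4, 75.9% lay on a water peak.

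In all, 2 of the 6 regions overlapped a water HNF4A peak (exact binomial interval 4.33 to 77.7%), against 45.9% of the water-enriched list. A DSS peak overlapped 3 of 6 (11.8 to 88.2%), against 32.9% of the list. Both intervals hold the share of the list, so 6 regions do not resolve a difference from it. The regions with HNF4A in either library, 3, 5 and 6, held 610 nucleosome tags in water and 291 in DSS, a ratio of 2.13 (1.85 to 2.46). The regions without it, 1, 2 and 4, held 656 and 314 tags, also a ratio of 2.13 (1.86 to 2.44). Region 3 was put with the bound regions by its DSS peak alone. The median ratios were 2.17 with and 2.04 without HNF4A, and a difference between these sets of 3 regions was not tested. The share of water peaks kept was 8 of 10 in the chromosome 4 group, and with 6 peaks in HoxA the difference between the places was not resolved. The members lay well inside the window, 49.7 kb from its lower and 50.8 kb from its upper bound, and the nearest HNF4A peaks outside were 132 kb above in both lists. The nearest water-enriched region outside was 325 kb above the window.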

How the data were processed

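H3K27ac and HNF4A ChIP-seq libraries of colonic epithelium, 1 per group, were read from 4 deposited tables. Per the submitters' processing notes, CASAVA 1.8.2, MACS2 and mm9 were used, with no role given. The deposited H3K27ac lists hold raw tag counts, marked MAPQ20 per the file headers, in columns headed nuc and lin, read as nucleosome and linker. The deposited score, headed NSD, was rebuilt from these counts in both lists, which gave the library totals. The deposited HNF4A peaks are 600 bp wide, each with a score of unstated kind, called per library as their names read. The positions of H3K27ac regions are printed as deposited and those of HNF4A peaks count from 1.

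Ratios were scaled by library totals, with exact conditional (Clopper-Pearson) 95% intervals, and log2 ratios used a pseudocount of 0.5. Kept shares have exact binomial intervals. Peaks near a rank were those within 500 ranks. A count of 0 allows a share of up to 3 counts of the total. Everything was computed with Python 3.11.15, scipy 1.17.1 and pandas 2.3.3, and the functions were tested on simulated data. The text names every region and peak of the window. The members, lists and tests were chosen with earlier results of these data known. Gene names come from RefSeq for GRCm38.p6, another build, used for names, order and spacing.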

Additional observations from a re-analysis of the deposited data

How the results depend on the processing

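The 6 H3K27ac regions were listed as enriched in water on these same counts, so their direction was no test of the processing. It held under every alternative run. These were adding linker tags, pseudocounts of 0.5, 1 and 5, and leaving out the scaling by library totals. Another scaled by the summed nucleosome tags of both lists. The last of these lowered every ratio, since water-enriched regions hold more tags than DSS-enriched ones. With it region 6 stood at 1.53, just under its interval, and 2 regions were more than 2-fold higher in water in place of 4. Without scaling by library totals 3 regions were more than 2-fold higher, since region 2 stood at 2.00. No region passed 3-fold (0 of 6). Of 54 alternative values, 51 stayed within the set limits. The count of kept water HNF4A peaks was 3 under each overlap rule and with only the 10688 highest water peaks used, which removed the 3 water-only peaks. It was 2 with only peaks above the median score of their list, because site 7 ranked below that median in DSS. Counting peaks within 2 kb, 4 regions in place of 3 had a DSS peak. No paired analysis was possible because each group had 1 library and the labels give no replicate numbers, and the mark r2 on the DSS tag column is unexplained. The low depth of linker tags limits what their ratios can show.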
